A study of Mus musculus with 8 samples.

Results

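Hedgehog reception was followed through 9 genes in embryonic mouse forelimb cells: the receptors Ptch1 and Hhip, the co-receptors Boc, Cdon and Gas1, the signal transducer Smo, and the transcription factors Gli1, Gli2 and Gli3. The 9 genes were taken by symbol from the 28001 listed features, and each matched 1 feature. All 9 had UMIs in each of the 8 libraries. In sorted cells no tested gene of the 9 passed 2-fold between successive stages up to the proximal E16.5 library. Between non-epithelial clusters of at least 50 cells of a library, Ptch1 differed by 1.88-fold at E11.5 and by up to 21.6-fold at E16.5. Ptch1, Cdon and Gli3 were each more than 2-fold higher in the distal than in the proximal E16.5 library.

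Hedgehog ligands are secreted proteins that bind Patched receptors. Without ligand, Ptch1 holds Smo inactive and Gli3, together with part of Gli2, is processed into a repressor of transcription. With ligand, Smo is released, full-length Gli proteins activate their targets, and Ptch1, Gli1 and Hhip are themselves classical targets, so that their transcripts are widely used as a readout of Hedgehog reception. Ptch1 and the decoy receptor Hhip bind ligand and limit its reach, whereas Boc, Cdon and Gas1 help present it to Ptch1 and are commonly lowered in cells that receive it. In the limb bud Shh is made at the posterior margin and Gli3 acts most strongly anteriorly. Later, Ihh is made by maturing chondrocytes and acts on chondrocytes and the perichondrium, Dhh is made by Schwann cells and acts on the perineurium, and Shh of hair placodes acts on the dermal condensate.

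Gene expression of single cells was measured with 10x Genomics droplet libraries, in which each captured transcript is counted once by its unique molecular identifier (UMI). Levels are in CPM, the UMIs of a gene summed over the cells of a library or cluster, per 1000000 UMIs of the same cells. All embryos were C57BL/6J and were exposed to 7.5 mg of tamoxifen given by gavage to the dam at embryonic day 10. The 6 sorted libraries held tdTomato+ forelimb cells of embryos labelled Hic1CreERT2/CreERT2;Rosa26LSLtdTomato/tdTomato. These embryos carry CreERT2 on both Hic1 alleles and a reporter that Cre recombination switches on, so tdTomato marks cells that expressed Hic1 around the treatment and the descendants of those cells. There was 1 library for each day from E11.5 to E14.5, and on E16.5 there was 1 of the proximal limb (distal stylopod, proximal zeugopod and elbow) and 1 of the distal limb (distal zeugopod and autopod). The other 2 libraries, whole 1 and whole 2, are replicates of E11.5 forelimb cells labelled as both tdTomato+ and tdTomato-, and the methods describe them as lineage-negative cells of entire Hic1CreERT2; R26tdTomato limbs, with no zygosity given. According to the methods, forelimbs were pooled over embryos and cells with blood or endothelial surface markers were removed in the sort, so no library stands for a single animal. Nothing says that whole 1 and whole 2 came from separate litters, so a p-value here measures only the spread between these samples, which may be technical.

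Of 57469 barcodes, 53085 cells passed (at least 3000 UMIs, at most 10% mitochondrial), between 3165 and 11109 per library. Their median depth was between 6788 (E13.5) and 18473 UMIs (E16.5 proximal). The sorted libraries held 427 to 1341 CPM of tdTomato and 22.0 to 38.0 CPM of Hic1, against 3.88 and 4.21 CPM of tdTomato and 0.702 and 0.741 CPM of Hic1 in whole 1 and whole 2. The whole limb libraries therefore held few cells with tdTomato UMIs, 1.24% and 1.39% of cells thinned to 3000 UMIs each. Any pair of libraries shared at most 48 cell barcodes. Levels of the sorted libraries were computed outside epithelial-like clusters and those of the whole limb libraries over mesenchymal clusters (5081 and 5329 cells). Each interval printed with a level or a ratio is an exact 95% interval that covers counting error only. A summed level does not tell apart fewer cells with a transcript and less of it per cell.

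The 9 genes are protein-coding and lie on 7 chromosomes of the GRCm38 build (GENCODE vM21). Ptch1 (ENSMUSG00000021466) spans chromosome 13 from 63508328 to 63573598 on the minus strand, and Hhip (ENSMUSG00000064325) spans chromosome 8 from 79965851 to 80058006 on the minus strand. Gli1 (ENSMUSG00000025407) lies on chromosome 10 from 127329882 to 127341974, minus strand. Gli2 (ENSMUSG00000048402) lies on chromosome 1 from 118834132 to 119053619, minus strand. Gli3 (ENSMUSG00000021318) lies on chromosome 13 from 15463235 to 15730026, plus strand. Boc (ENSMUSG00000022687) lies on chromosome 16 from 44485049 to 44558897, minus strand. Cdon (ENSMUSG00000038119) lies on chromosome 9 from 35421128 to 35507652, plus strand. Gas1 (ENSMUSG00000052957) lies on chromosome 13 from 60174405 to 60177365, minus strand. Smo (ENSMUSG00000001761) lies on chromosome 6 from 29735503 to 29761365, plus strand.

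Since Ptch1, Gli1 and Hhip are classical targets, the bases just before the RefSeq start (GRCm38.p6) were searched for the Gli consensus GACCACCCA and its core CCACCC on both strands; the core is part of the consensus. The table held a window for 7 of the 9 genes, not for Gli1 and Boc. The Ptch1 window (chr13:63565736-63565985, minus strand) lies inside the annotated span of the gene, and the Hhip window (chr8:80058009-80058258, minus strand) lies upstream of its gene. Both are shown 5′ to 3′ over 250 bases, with the core motif in capitals:
Ptch1: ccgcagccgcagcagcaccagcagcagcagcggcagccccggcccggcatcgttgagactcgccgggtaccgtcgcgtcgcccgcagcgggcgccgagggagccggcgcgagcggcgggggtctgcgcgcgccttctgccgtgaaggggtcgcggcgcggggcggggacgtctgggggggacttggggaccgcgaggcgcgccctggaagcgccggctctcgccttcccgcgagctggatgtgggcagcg
Hhip: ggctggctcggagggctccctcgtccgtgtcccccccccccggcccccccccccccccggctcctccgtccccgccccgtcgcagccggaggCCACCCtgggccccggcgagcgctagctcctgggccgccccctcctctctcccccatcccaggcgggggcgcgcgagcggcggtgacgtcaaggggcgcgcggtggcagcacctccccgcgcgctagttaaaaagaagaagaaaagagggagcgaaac
No window of the 7 genes held the consensus, which was present in 0.225% of 32851 such windows. The core was present in the windows of Hhip, Smo, Gli2 and Gli3, against 28.1% of all windows, and was absent from those of Ptch1, Cdon and Gas1. Like that of Ptch1, the windows of Cdon (chr9:35451826-35452075) and Gli3 (chr13:15463473-15463722) lie inside the annotated span of the gene. In Hhip it lies 158 to 153 bases upstream of the start. These matches are a description of the letters in these windows.

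The time course asked how reception genes behave as Hic1-lineage cells differentiate. With 1 library per stage no test was possible, so a step was called where a gene differed more than 2-fold and reached at least 5 CPM in the library where it was higher. No tested member passed 2-fold at any of the 4 steps. This was 0 of 8 tested members at E12.5 against E11.5, where 4.32% of all tested genes were called in either direction, and 0 of 8 at E13.5 against E12.5, where 4.08% were called. It was 0 of 9 at E14.5 against E13.5 (11.6% of all genes) and 0 of 9 at E16.5 proximal against E14.5 (12.6% of all genes). Hhip was below 5 CPM and not tested at the earlier pair of steps; its level at E13.5 was 2.27-fold [1.76 to 2.95] that at E12.5.

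Ptch1 stood at 43.0, 34.8, 25.5 and 28.4 CPM on the successive days E11.5 to E14.5. On E16.5 it stood at 21.5 CPM proximally and 50.7 CPM distally, and in whole 1 and whole 2 at 54.2 and 54.0 CPM. Its lowest and highest sorted libraries were thus the 2 segments of E16.5. Hhip, at a few CPM throughout, was lowest at E12.5 with 1.99 CPM [1.60 to 2.45] and highest at E16.5 distal with 9.54 CPM [9.06 to 10.0], and its levels of 4.52, 5.14 and 5.16 CPM on E13.5, on E14.5 and in the proximal E16.5 library had overlapping intervals.

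Among the co-receptors, Cdon stood at 16.5, 24.9, 29.9 and 46.1 CPM on the days E11.5 to E14.5, and on E16.5 at 38.4 CPM proximally and 81.4 CPM distally. Boc, a close relative of Cdon, took another course: 39.1, 66.6, 57.8 and 38.9 CPM on those days, and 31.9 CPM proximally and 53.7 CPM distally on E16.5. The Boc levels at E11.5 and E14.5 did not differ beyond their counting error. Gas1, a membrane-anchored co-receptor, was lowest at E16.5 proximal with 577 CPM, stood at 619.7, 687 and 775 CPM from E11.5 to E13.5 and at 775 at E16.5 distal, and was highest at E14.5 with 1088 CPM.

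Smo stayed between 82.6 CPM (E16.5 proximal) and 124 CPM (E12.5), and Gli1 between 12.9 CPM (E16.5 proximal) and 18.5 CPM (E13.5), the narrowest ranges of the 9 genes (1.51-fold and 1.43-fold over the 6 sorted libraries). Gli2, the main activator among the Gli proteins, stood at 22.3, 17, 17.3 and 11.3 CPM on the days E11.5 to E14.5, at 10.0 CPM in the proximal and at 16.1 CPM in the distal E16.5 library. Gli3, the main repressor, stood at 58.8, 50.8, 53.3 and 47.6 CPM from E11.5 to E14.5, at 25.6 CPM at E16.5 proximal and at 57.3 CPM at E16.5 distal. For Gli3 the E16.5 proximal library alone stood apart from the other sorted libraries.

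**Figure D1:**
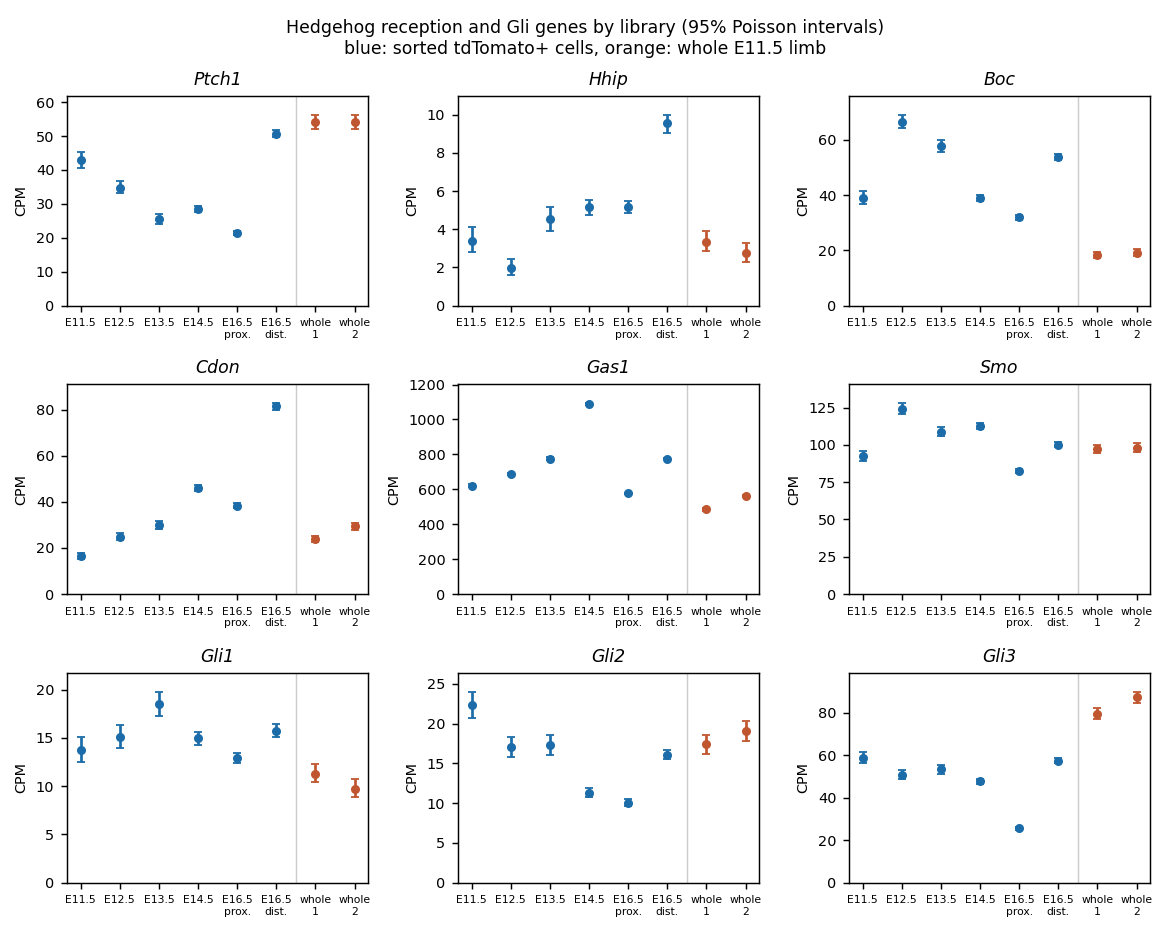
Levels of the 9 genes in CPM (y axis, from 0) in each library (x axis), sorted libraries in blue and whole E11.5 limb libraries in orange. Points are levels and bars are exact 95% Poisson intervals. Ptch1 and Gli3 reach 50.7 and 57.3 CPM in the E16.5 distal library against 21.5 and 25.6 CPM in the proximal one.

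Over the whole interval from E11.5 to E16.5 proximal, 3 of 9 members were called, a share below the 43.3% of all genes called. Cdon was 2.33-fold higher [2.13 to 2.55], Gli2 was 2.22-fold lower [2.04 to 2.43] and Gli3 was 2.30-fold lower [2.18 to 2.42]. Ptch1 stood at the threshold, 2.00-fold lower [1.88 to 2.13], and was not called. The median ratio of all tested genes was 0.717 on this scale. With TMM scaling, which moves that median to 0.946, the ratio of Gli2 was 0.582 and that of Gli3 was 0.564, and only Cdon was called. The reagent kit was v2 up to E13.5 and v3 afterwards. According to the methods, limbs were dissociated with Dispase up to E12.5 and with Collagenase A and Pronase from E13.5 on. Kit, dissociation and stage therefore cannot be told apart.

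Of the listed Hedgehog genes, members included, 15 of 39 tested were called over the same interval, 6 higher and 9 lower, against 43.3% of all genes (13.7% higher and 29.6% lower), so the count was near the background. Scube2, a secreted protein that helps release lipid-bearing ligand, stood at 1.46 CPM at E11.5 and 22.1 CPM at E16.5 proximal. The lower genes included Mycn, a target linked to proliferation, at 36.0 and 2.98 CPM. They also included Hand2, a posterior transcription factor upstream of Shh that is counted here among the listed targets, at 112 and 29.0 CPM. The summed marker lists also differed between E11.5 and E16.5 proximal, from 1669 to 807 CPM for mitotic, 19 to 2049 CPM for fibroblast, 687 to 5112 CPM for chondrocyte and 13.1 to 132 CPM for muscle fibre genes, and their part in these differences was not tested.

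The E11.5 comparison asked how sorted Hic1-lineage cells differ from the whole limb mesenchyme of the same age. It is the only one with replicates, and rests on 1 sorted and 2 whole limb libraries with 1 residual degree of freedom, the sorted library being taken to vary like the others. The sorted library kept 74.2% of its barcodes, against 97.7% and 98.6% in whole 1 and whole 2. With 1 sorted library, sorting and batch cannot be told apart. In the quasi-likelihood test of edgeR with Benjamini-Hochberg adjustment over all 15093 genes tested, 5 of 9 members were called, against 53.5% of all genes, so the share of members was near the background. The median log2 fold change was -0.02 over the members and 0.01 over all genes. Boc was higher in sorted cells, whereas Ptch1, Cdon, Smo and Gli3 were lower.

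Boc stood at 39.1 CPM in the sorted library and at 18.3 and 19.1 CPM in whole 1 and whole 2. The sorted library lay above both (log2 fold change 0.88, SE 0.12, edgeR adjusted p = 1.1e-11). Cdon showed the opposite order, 16.5 CPM against 23.9 and 29.4 CPM (log2 fold change -0.88, SE 0.13, edgeR adjusted p = 6.0e-10), and its call was lost without the filter on low counts (adjusted p = 0.0633).

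Gli3 stood at 58.8 CPM against 79.4 and 87.1 CPM (log2 fold change -0.69, SE 0.10, edgeR adjusted p = 3.9e-11) and Ptch1 at 43.0 CPM against 54.2 and 54.0 CPM (log2 fold change -0.52, SE 0.11, edgeR adjusted p = 1.0e-05). For both, the sorted library lay below both whole limb libraries. Smo stood at 92.3 CPM against 97.2 and 98.2 CPM (log2 fold change -0.27, SE 0.10, edgeR adjusted p = 0.0125), and this call was lost with DESeq2, without the filter and without TMM scaling (log2 fold change -0.08).

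Hhip (log2 fold change -0.02, SE 0.21, adjusted p = 0.936), Gas1 (0.06, SE 0.12, adjusted p = 0.692), Gli1 (0.20, SE 0.15, adjusted p = 0.255) and Gli2 (0.11, SE 0.13, adjusted p = 0.499) did not pass the edgeR test. On library totals with no TMM factor, which shifts the median log2 fold change of all genes to 0.20 and the split of calls from 4077 higher and 3994 lower to 5511 higher and 2469 lower, Gli1 was called higher by edgeR (log2 fold change 0.38, adjusted p = 0.0245) and Hhip changed sign to 0.16 without a call.

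Of the 35 other listed Hedgehog genes tested, 4 were higher, 17 were lower and 14 did not pass, with a median log2 fold change of -0.35, against 53.5% of all genes called (4077 higher and 3994 lower of 15093). Shh had 5 UMIs in the sorted library and 164 and 170 UMIs in whole 1 and whole 2 (log2 fold change -4.64, SE 0.41, edgeR adjusted p = 2.5e-28). Of the 10 listed targets 7 were lower (5 to 7 under the alternatives with a test, fewest without the filter on low counts), among them the limb patterning factors Tbx2 (log2 fold change -2.73) and Tbx3 (-1.56) and the secreted BMP antagonist Grem1 (-1.52). Scube2 was higher (log2 fold change 2.05, SE 0.41, edgeR adjusted p = 2.9e-06) at low counts of 46 UMIs against 23 and 6, and this call was lost with DESeq2 (adjusted p = 0.0705) and without the filter on low counts (edgeR adjusted p = 0.130).

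Marker lists of limb regions were also compared. The posterior list shares Hand2, Tbx2 and Tbx3 with the listed Hedgehog targets, so it is not independent of the target counts above. All 7 listed distal mesenchyme markers were below both whole limb libraries in the sorted one (96.4 CPM summed, against 1308 and 1157), as were 7 of 8 anterior markers (309 against 600.0 and 643 CPM) and 5 of 6 posterior markers (272 against 533 and 528 CPM). All 8 tenocyte markers were above both (263 against 61.6 and 60.3 CPM), and no listed marker of these 4 lists was at 0 in the 3 libraries. Other lists differed as well. Mitotic markers were below both for 8 of 9 genes (1669 against 2269 and 2226 CPM summed). Joint markers were above both for 5 of 7 and below for 2 (147 against 52.0 and 49.6 CPM). Chondrocyte markers were above both for 6 of 10 and below for 4 (687 against 453 and 478 CPM). The part of this cell makeup in the member differences was not tested.

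**Figure D2:**
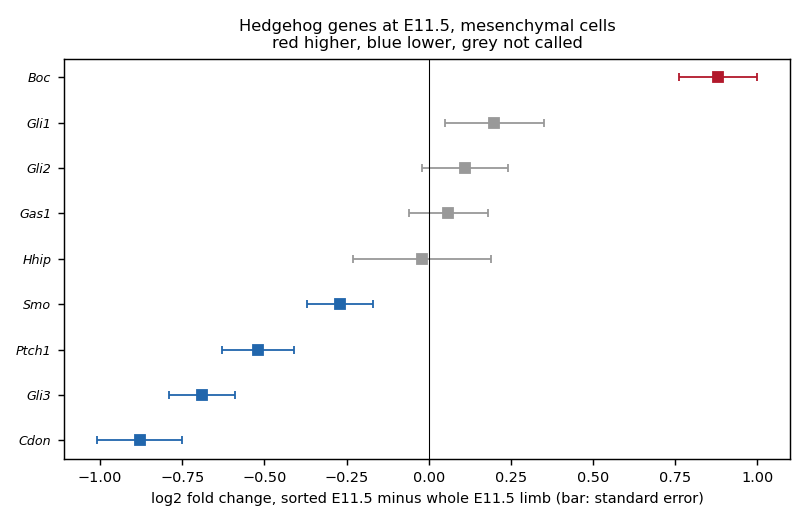
Log2 fold change (x axis, bars are standard errors of the edgeR fit) of sorted over whole limb E11.5 mesenchymal cells for the 9 members (squares). Red and blue mark genes called higher and lower at an adjusted p under 0.05; Boc is the only member in red, at 0.88, and Cdon is the lowest member at -0.88.

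Within the whole limb, the 16 mesenchymal clusters were defined without the Hedgehog genes, with the cells of the 2 libraries clustered together. Ptch1 and Gli1 were high and low together, with Pearson r of 0.93 in whole 1 and 0.91 in whole 2 over the 16 clusters, and Ptch1 ran against Cdon (-0.82 and -0.72), Gas1 (-0.56 and -0.55) and Gli3 (-0.54 and -0.43). These correlations describe clusters that share a library and differ in depth, and they carry no test. Clusters 2 and 4, anterior mesenchyme-like and led by Pax1 and Irx3, had the lowest Ptch1 of whole 1 and whole 2 respectively. In cluster 2 Ptch1 stood at 11.4 and 20.4 CPM and Gli1 at 0.599 and 1.72 CPM, and in cluster 4 Ptch1 stood at 15.2 and 13.9 CPM and Gli1 at 3.57 and 2.81 CPM. The same clusters were the highest for Cdon (66.5 and 70.9 CPM in cluster 2, 67.5 and 71.7 CPM in cluster 4).

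Cluster 3, led by Tfap2b, Hoxd13 and Evx2, transcripts of the distal limb bud, had the highest Ptch1 (89.8 and 96.2 CPM) and Gli1 (22.8 and 20.6 CPM) of both libraries, and stayed unnamed. In both libraries the intervals of these levels overlapped those of the next cluster, cluster 10 for Ptch1 and cluster 8 for Gli1. Cluster 10, led by Dkk1, Bcas3 and Zfp503, held more cells with a Shh UMI than any other cluster (33 of 87 in whole 1 and 38 of 92 in whole 2). Its marker-based name, posterior mesenchyme-like, rests on Hand2, Tbx2 and Tbx3, which are themselves on the Hedgehog list. Its Ptch1 was high (89.0 and 79.8 CPM), while Gas1 stood at 85.0 and 111 CPM against cluster medians of 465 and 534 CPM, and Boc at 5.58 and 6.62 CPM, in each case the lowest of the 16 clusters. Gli3 was likewise low there (43.7 and 49.3 CPM).

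Gli3 was highest in cluster 15, led by Pax9, Rbfox3 and Epha3, with 159.7 and 175 CPM beside a Ptch1 of 29.9 and 30.0 CPM. Cluster 16, distal mesenchyme-like and led by Lhx2 and Gata6, combined Gli3 at 121 and 123 CPM with Ptch1 at 15.3 and 19.1 CPM and Gli1 at 2.09 and 1.23 CPM. The other distal mesenchyme-like cluster, cluster 5, had Ptch1 at 66.4 and 72.0 CPM. Boc was highest in the chondrocyte-like clusters 1 (46.7 and 46.6 CPM) and 7 (42.2 and 38.4 CPM), and cluster 7 also held the highest Hhip of the mesenchymal clusters (8.35 CPM [5.10 to 12.9] and 6.70 CPM [4.03 to 10.5]), with intervals that overlap those of the next cluster. Smo varied least, from 76.5 to 134 CPM in whole 1 and from 71.9 to 128 CPM in whole 2.

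**Figure D3:**
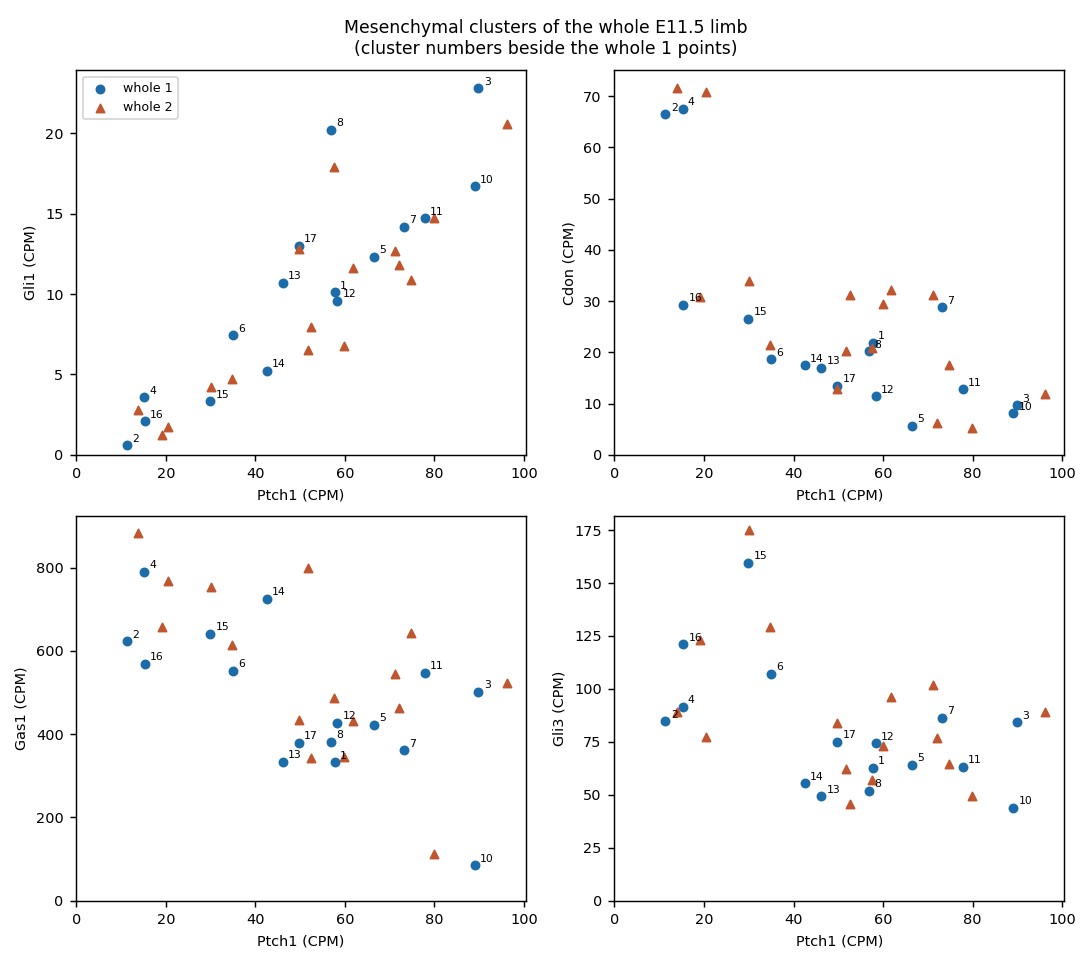
Ptch1 (x axis, CPM) against Gli1, Cdon, Gas1 and Gli3 (y axes, CPM) in the 16 mesenchymal clusters of the whole E11.5 limb, whole 1 as blue circles with cluster numbers and whole 2 as orange triangles. Gli1 increases with Ptch1 (r of 0.93 and 0.91), Cdon is highest in clusters 2 and 4, which with cluster 16 have the lowest Ptch1, and cluster 10 has the lowest Gas1 (85.0 and 111 CPM).

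Cells that carried Shh transcripts themselves were also compared with the other mesenchymal cells of their library. In whole 1, 85 such cells had Gas1 at 158 CPM [135 to 184] against 492 CPM in the other cells, and in whole 2, 92 such cells had Gas1 at 239 CPM [211 to 269] against 570.5 CPM. Cdon stood at 4.71 against 24.3 CPM and at 11 against 29.9 CPM, Boc at 4.71 against 18.6 CPM and at 4.57 against 19.5 CPM, and Gli3 at 48.1 against 80.1 CPM and at 43.9 against 88.2 CPM. Co-receptors and Gli3 were thus lower in Shh-positive cells of each library, with intervals that did not overlap. Ptch1 was higher (79.2 against 53.6 CPM, and 87.8 against 53.2 CPM), whereas Gli1 stood at 11.3 in both kinds of cells of whole 1 and at 10.1 [5.02 to 18.0] against 9.73 CPM in whole 2. Of all Shh-positive cells, 33 of 87 in whole 1 and 38 of 92 in whole 2 lay in cluster 10. That cluster as a whole had Gas1 at 85.0 and 111 CPM and Boc at 5.58 and 6.62 CPM. No comparison was made within cluster 10, so the presence of Shh and the cluster cannot be told apart.

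Among non-epithelial clusters of at least 50 cells in the sorted libraries, the highest exceeded the lowest for Ptch1 by 1.88-fold, 3.18-fold, 7.66-fold and 10.9-fold on the days E11.5 to E14.5, and on E16.5 by 21.6-fold proximally and 18.3-fold distally. The lowest level on E14.5 rests on 5 UMIs (7.90 CPM [2.57 to 18.4]), so the fold of that day is loosely fixed. The number of clusters compared also differed, from 8 on E11.5 to 19 in the distal E16.5 library. Centred within library and over 90 clusters, Ptch1 went with Gli1 (r = 0.77), Hhip (0.60), Gli2 (0.54) and Smo (0.48) and against Cdon (-0.39). Unlike in the whole limb, the correlation with Gli3 was positive (0.31), and that with Gas1 was -0.18. These values describe clusters, which share libraries.

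At E12.5 the highest Ptch1 was in cluster 10, led by Igfbp7, Zeb2 and Tek (59.8 CPM [49.5 to 71.6]), which also had the highest Gli1 (27.9 CPM) and Gli3 (83.1 CPM). For each of these genes the interval overlapped that of the next cluster. At E13.5 the highest Ptch1 was in cluster 3, led by Pcp4, Igfbp7 and Anxa1 with Runx2 among its leading genes (57.1 CPM). This cluster again had the highest Gli1 (40.8 CPM [34.6 to 47.8]), with an interval that overlapped that of the next cluster. A small E13.5 cluster 16 of 74 cells, led by Cyp26a1, had the same Ptch1 (57.1 CPM) and the highest Hhip of that stage (65.2 CPM [44.6 to 92.1]), against 12.3 CPM [9.09 to 16.3] in the next, cluster 6. Cluster 6, led by Irx5 and Gatm, had at the same time the lowest Ptch1 (7.45 CPM) and the lowest Gli1 (6.42 CPM) of that stage, so Hhip did not follow the other pair there.

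At E14.5 an osteogenic-like cluster (cluster 6, 663 cells, with Pcp4, Runx2 and Alpl among its leading genes) was highest for Ptch1 (86.2 CPM [80.3 to 92.4]), Gli1 (44.3 CPM [40.1 to 48.8]) and Hhip (15.8 CPM [13.4 to 18.6]) and lowest for Cdon (17.3 CPM). For Ptch1 and Hhip the interval overlapped that of the next cluster. A tenocyte-like cluster of 67 cells was lowest for Ptch1 (7.90 CPM [2.57 to 18.4], from 5 UMIs) and Gli1 (1.58 CPM, from 1 UMI) and highest for Gas1 (2556 CPM). Naming cells by at least 3 osteogenic markers without clustering left 13 cells and a Ptch1 of 155 CPM [106 to 219].

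At E16.5 proximal the osteogenic-like cluster 17 (219 cells, with Alpl and Omd among its leading genes) had the highest Ptch1 (80.3 CPM) and Hhip (34.5 CPM [28.5 to 41.3]), and a dermal fibroblast-like cluster 5 the highest Gli1 (30.5 CPM) and Gli2 (19.1 CPM) with Ptch1 at 71.6 CPM. Each of these highest levels had an interval that overlapped that of the next cluster. The fibroblast-like cluster 9, led by Ly6a and Pi16, had the lowest Ptch1 of the non-epithelial clusters there (3.72 CPM [2.74 to 4.93]). From E13.5 on, a chondrocyte-like cluster was the lowest for Gas1 among the non-epithelial clusters of at least 50 cells of every sorted library (344 and 331 CPM on E13.5 and E14.5, 169 CPM proximally and 187 CPM distally on E16.5). Boc was highest in a chondrocyte-like cluster on E12.5 (109 CPM) and E14.5 (75.1 CPM) and in the distal E16.5 library (113 CPM).

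At E16.5 distal cluster 14 (339 cells, with Omd and Alpl among its leading genes; unnamed) had a Ptch1 of 203 CPM [191 to 216], a Hhip of 81.5 CPM [73.9 to 89.6] and a Gli1 of 44.0 CPM [38.5 to 50.1], each the highest among the clusters of at least 50 cells of that library. With every cell thinned to 3000 UMIs, 37.5% of its cells had a Ptch1 UMI and 17.7% a Hhip UMI (76.1% and 42.5% unthinned; median depth 13718 UMIs). Among the 68 cells of the epithelial-like cluster 20 of the same library the thinned shares were 13.2% for Ptch1 and 0% for Hhip (exact upper limit 5.28%) at a median depth of 29687.5 UMIs (8.82% for Hhip unthinned). Ptch1 is also transcribed in skin epithelium, so that share is no measure of free RNA, and the background of free RNA in this library was not measured. The dermal fibroblast-like cluster 1 followed with Ptch1 at 153 CPM and Gli1 at 40.0 CPM [36.6 to 43.6], a Gli1 interval that overlapped that of cluster 14. A joint-like cluster 19, led by Btc and Gdf5, combined Hhip at 57.2 CPM with the highest Cdon of any cluster in that library (194 CPM [176 to 213]).

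The highest Ptch1 of the series was in a dermal condensate-like cluster of 22 cells (E16.5 distal cluster 21, led by Hes5, Sox2, Dll1 and Gal), below the size limit of 50 cells used for the rankings and singled out after its values were seen. Ptch1 stood there at 779 CPM [682 to 887], Gli1 at 133 CPM [94.4 to 181] and Hhip at 74.9 CPM [46.9 to 113]. The repressor and co-receptors were low in the same cells, with Gli3 and Boc at 10.2 CPM each (3 UMIs), Cdon at 6.81 CPM (2 UMIs) and Gas1 at 91.9 CPM [60.5 to 134]. After thinning, 72.7% [49.8 to 89.3] of these cells had a Ptch1 UMI, and without thinning all 22 did, at a median depth of 11858 UMIs.

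**Figure D4:**
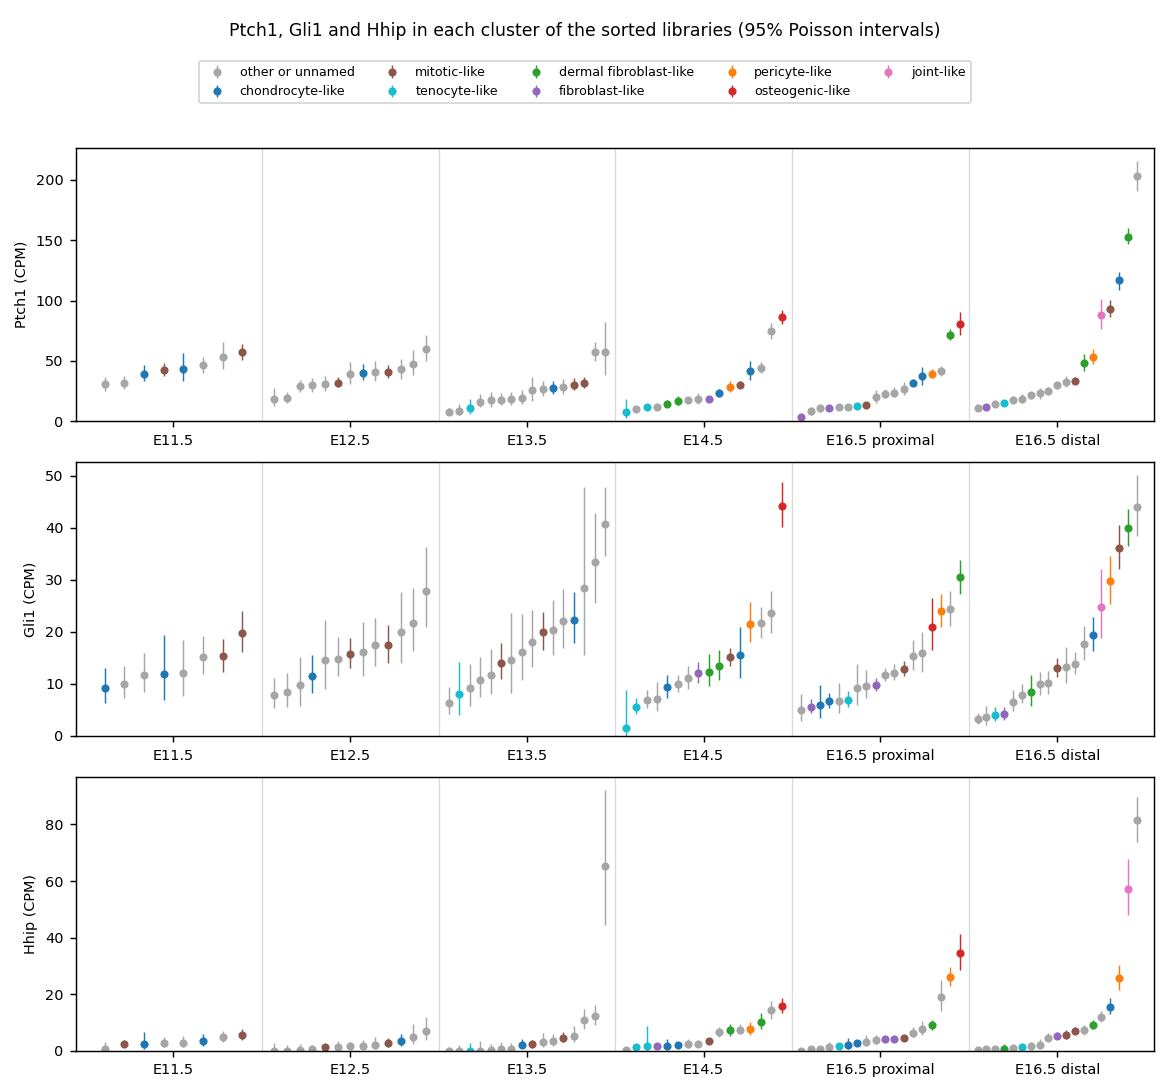
Levels of Ptch1, Gli1 and Hhip (y axes, CPM, with 95% Poisson intervals) in each non-epithelial cluster of at least 50 cells, ordered by level within each sorted library (x axis) and coloured by marker-based class. The highest Ptch1 is 86.2 CPM at E14.5 (osteogenic-like), 80.3 CPM at E16.5 proximal (osteogenic-like) and 203 CPM at E16.5 distal (unnamed cluster 14).

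The pericyte-like clusters carried high Hhip at E16.5 (26.1 CPM proximal, 25.6 CPM distal), and finer clustering divided them. In the proximal library 239 cells of a finer cluster led by Scg2, Ccl11 and Angpt2 had Ptch1 at 61.6 CPM, Gli1 at 37.6 CPM and Hhip at 44.3 CPM, with Cldn1, a tight junction gene of perineurial cells, at 55.0 CPM and Wnt6 at 18.4 CPM. The 165 cells of a finer pericyte-like cluster led by Rgs5 and Myh11 had Ptch1 at 8.60 CPM, Gli1 at 4.69 CPM, Hhip at 1.04 CPM and Cldn1 at 0.521 CPM. Ptch1, Gli1 and Hhip of the coarser cluster were thus higher in the cells with more Cldn1 and Wnt6. Those cells also held mural transcripts at lower levels, with Rgs5 at 84.8 against 992 CPM and Acta2 at 620 against 2351 CPM. At E14.5 the pericyte-like finer cluster led by Acta2 and Rgs5 (150 cells) had Ptch1 at 36.3, Gli1 at 27.6 and Hhip at 15.2 CPM, against 22.9, 17.4 and 1.94 CPM in 209 cells led by Crtac1. Cldn1 (16.8 against 6.78 CPM) and Wnt6 (8.79 against 1.62 CPM) were also higher in the former, so at that stage they lay on the side of Rgs5 (138 against 40.4 CPM).

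The distal library was divided alike. There, 160 cells led by Lypd2 had Ptch1 at 69.5 CPM, Gli1 at 37.8 CPM, Hhip at 35.7 CPM, Cldn1 at 47.1 CPM and Wnt6 at 25.5 CPM, against 15.0, 11.4, 2.40, 1.20 and 1.80 CPM in 65 cells led by Myh11 and Rgs5. Cldn1, Wnt6 and Lypd2 are on the perineurial marker list, but neither cluster reached that name under the naming rule. Slc2a1, of the same list, did not go with them, at 23.8 against 27.1 CPM proximally and 20.1 against 21.6 CPM distally. The rest of that list, Itgb4, Mpzl2, Tenm2 and Ntng1, was not compared between these finer clusters. The comparison of finer clusters was chosen after the values had been seen.

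The E16.5 comparison asked whether reception genes differ between segments of the same limb. With 1 library per segment it has no test, and counting software version and segment cannot be told apart. Of 9 members, 3 were called and all 3 were higher distally, against 7.07% of all genes called. Ptch1 stood at 21.5 CPM proximally and 50.7 CPM distally (2.36-fold [2.27 to 2.45]), Gli3 at 25.6 and 57.3 CPM (2.24-fold [2.16 to 2.32]) and Cdon at 38.4 and 81.4 CPM (2.12-fold [2.06 to 2.18]). The remaining 6 were also higher distally, within 2-fold: Hhip 1.85-fold, Boc 1.68-fold, Gli2 1.61-fold, Gas1 1.34-fold, Gli1 1.22-fold and Smo 1.21-fold. The median ratio of all tested genes also lay above 1, at 1.07, and 4.50% of them were called higher distally. With epithelial-like clusters kept in, Hhip passed as well (2.13-fold). Of the other listed genes Disp1, which exports ligand, Bcl2 and Hand2 were also called higher, by 2.28-fold, 2.05-fold and 2.22-fold.

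The 2 libraries differed in makeup. The summed chondrocyte list stood at 5112 CPM proximally and 1205 CPM distally, with all 10 genes lower distally. The muscle fibre list stood at 132 and 36.1 CPM, and the distal mesenchyme list at 15.1 and 147 CPM. No gene of these lists was at 0 in either library. The comparison was repeated within the 6 non-epithelial classes named in both libraries, which can hold different clusters in each (chondrocyte-like 7 and 20 against 10, mitotic-like 4 against 5 and 13, dermal fibroblast-like 5 against 1 and 16). The ratio of distal to proximal level was above 1 in 6 of 6 classes for Ptch1 (2 past 2-fold), Gli3 (3 past 2-fold), Cdon (2 past 2-fold), Gli2 and Boc. It was above 1 in 4 of 6 classes for Gli1, with 1 class past 2-fold in the other direction, and in 3 of 6 for Hhip and Gas1. Among the 5 genes above 1 in every class, intervals included 1 for Ptch1 in tenocyte-like cells (1.19 [0.932 to 1.51]). They also did for Gli2 in tenocyte-like (1.31 [0.984 to 1.75]) and fibroblast-like cells (1.13 [0.906 to 1.39]). For Gli2 in chondrocyte-like cells (1.27) the interval began at 1.00. Of the 8496 genes tested in all 6 classes, 28.9% had a ratio above 1 in every class, 6.99% were past 2-fold higher in at least 2 classes and 3.15% in at least 3, and 5 of the 8 members among them had a ratio above 1 in every class. Epithelial-like cells were left out of this count, since suprabasal cluster 8 and basal cluster 12 stood for them proximally (Ptch1 11.4 CPM together, 41.5 CPM in cluster 12) and the Krt1-led cluster 20 alone distally (33.1 CPM).

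Chondrocyte-like cells (794 proximal, 444 distal) had Ptch1 at 32.6 CPM proximally and 117 CPM distally (3.57-fold [3.21 to 3.98]), Gli1 at 6.56 and 19.4 CPM (2.96-fold [2.29 to 3.83]) and Hhip at 2.61 and 15.6 CPM (5.99-fold [4.19 to 8.69]). Mitotic-like cells had Ptch1 at 13.4 and 54.2 CPM (4.03-fold [3.57 to 4.58]). Gas1 stood at 173 and 187 CPM in chondrocyte-like cells. Of all genes tested in a class, 13.9% were past 2-fold higher distally in chondrocyte-like and 7.91% in mitotic-like cells. Pericyte-like cells had Cdon at 11.7 and 31.2 CPM (2.67-fold), with Ptch1 at 39.3 and 53.1 CPM. Of these cells, 239 of 410 proximally and 160 of 225 distally lay in the finer clusters with more Cldn1 and Wnt6. The finer clusters led by Rgs5 and Myh11 had Cdon at 5.73 and 11.4 CPM and Ptch1 at 8.60 and 15.0 CPM. In mitotic-like cells Gli1 (1.63-fold), Hhip (1.47-fold) and Gas1 (1.64-fold) were within 2-fold.

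Fibroblast-like cells (clusters 1 and 9 proximally, cluster 4 distally) had Gli3 at 22.8 and 50.1 CPM (2.20-fold [1.98 to 2.44]) but Gli1 at 8.53 CPM proximally and 4.25 CPM distally, a distal over proximal ratio of 0.498 [0.365 to 0.668]. Tenocyte-like cells had Gli3 at 19.8 and 41.3 CPM (2.09-fold), with Ptch1 at 12.4 and 14.7 CPM (1.19-fold [0.932 to 1.51]) and Gli1 at 6.97 and 4.08 CPM. Dermal fibroblast-like cells had Cdon at 28.6 and 71.1 CPM (2.48-fold), Gli3 2.03-fold higher at 40.6 CPM distally and Ptch1 at 71.6 and 129 CPM (1.80-fold). The finer clustering, which divides the class differently, put this distal Ptch1 at 70.4 CPM, and no ratio was computed within finer clusters.

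**Figure D5:**
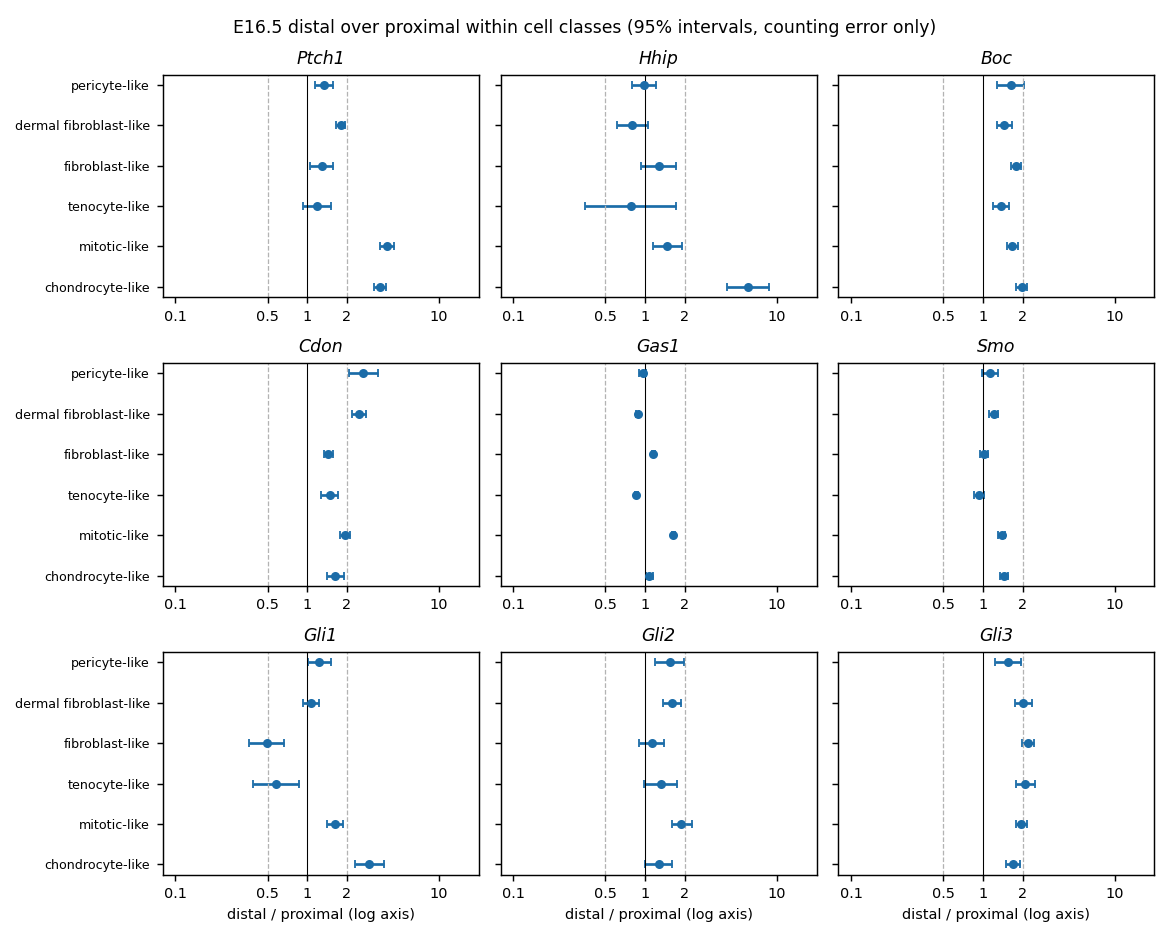
Ratio of E16.5 distal over proximal CPM (x axis, logarithmic, with 95% counting intervals) for the 9 genes in the 6 non-epithelial cell classes named in both libraries (y axis). Dashed lines mark 2-fold in either direction; Ptch1, Boc, Cdon, Gli2 and Gli3 lie above 1 in all 6 classes, and Gli1 lies below 1 in fibroblast-like and tenocyte-like cells.

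The genes with the pattern most like that of Ptch1, Gli1 and Hhip were ranked over 93 clusters of the sorted libraries by Pearson correlation of log2(CPM + 1), centred within library, among 10261 genes. Ptch1 was followed most closely by Runx2 (r = 0.784), a transcription factor of osteoblast differentiation, Gli1 (0.779) and Id2 (0.710), an inhibitor of helix-loop-helix factors. Gli1 was followed most closely by Ptch1 (0.779). For Hhip the most alike was the adaptor Grb14 (0.649), and the transcription factor Maf (0.604) was also among the 3 most alike.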

How the data were processed

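The authors aligned reads to a modified mm10 reference and counted UMIs with Cell Ranger, and the deposited matrices hold raw counts per gene and cell barcode. Per the file headers, the version was 3.0.2 for 5 sorted libraries and 6.0.1 for E16.5 distal; the whole limb headers carry none. The reporting summary of the study names another single version for all single-cell data. The minimum of 3000 UMIs per cell follows the methods, which give no number for mitochondrial content; a limit of 10% was set here. No doublet caller was run; leaving out the 5% of cells with most UMIs was an alternative.

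Each sorted library was clustered alone and the whole limb libraries together, without the Hedgehog list, Hic1, the transgenes, mitochondrial, haemoglobin and sex-linked genes (2000 variable genes, 50 principal components, 25 neighbours, Leiden resolution 1, or 2 for the finer clusters; scanpy 1.11.5, leidenalg 0.10.2, igraph 0.11.9, Python 3.11.15, numpy 2.4.6, scipy 1.17.1, scikit-learn 1.9.0). A cluster was named with the ending "-like" where 3 or more markers reached a log2 fold of 1 and detection in 10% of its cells, unless another class had more markers among its 10 leading genes. Clusters led by muscle fibre or platelet genes stayed unnamed, and anterior and posterior names were kept for the whole limb only, rules added after the clusters had been seen.

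The 9 members and the gene and marker lists were chosen with earlier results of these data known. Of the 46 listed Hedgehog genes, 37 are no members. Named genes were the members, listed genes past the threshold and the ligands, and the 3 genes most like Ptch1, Gli1 and Hhip (genes at 20 CPM or more in a cluster, clusters of 50 cells or more). The E11.5 test used edgeR 4.0.16 (R 4.3.3) with TMM scaling and its filter on low counts; the alternatives used DESeq2 1.42.0, limma-voom (limma 3.58.1) and, chosen after seeing the data, library totals with no TMM factor. On simulated data for this comparison, with 15093 genes, edgeR recovered 93 of 100 genes changed 2-fold and 100 of 100 changed 4-fold, with 11 false calls. The simulated sorted library was given the same spread as the whole limb ones, and most genes were left unchanged. The simulation therefore cannot check whether the real sorted library varies like the others. Intervals are exact Poisson for levels, exact conditional for ratios and Clopper-Pearson for shares, and cover counting error only. Coordinates are those of GENCODE vM21. A few genes that the naming rule selects are not reported here.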

Additional observations from a re-analysis of the deposited data

How the results depend on the processing

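Of the alternatives for the main counts and values, 29 stayed within the limits set for each and 7 moved. In the E11.5 test, DESeq2 called 4897 genes and the fit with no filter on low counts called 3973, against 8071; without the filter 3 members were called (Ptch1, Boc and Gli3), and the cause was not tested. For the time course, where no step of a member was called, CPM without mitochondrial, ribosomal protein and haemoglobin genes called 1 (Hhip at E13.5), cells thinned to 3000 UMIs called 1 (Gli3 at E16.5 proximal), and all cells that pass the filter, epithelial-like ones included, called 2 (Gas1 and Gli3 at E16.5 proximal). Between E11.5 and E16.5 proximal, TMM scaling left 1 member called, Cdon; Ptch1, 2.00-fold lower and not called, passed under 4 alternatives (ratios of 0.464 to 0.496), and Gli2 was lost without mitotic-like cells (0.503). No called value changed its sign under the alternatives run. The printed CPM carry no TMM factor, whereas the main log2 fold changes do. With no TMM factor the log2 fold change was -0.33 for Ptch1, 1.06 for Boc, -0.69 for Cdon and -0.50 for Gli3. Without mitotic-like cells it was -0.65 for Ptch1 and -0.78 for Gli3. Leaving out whole 1 or whole 2 leaves no residual degree of freedom, so it gives values with no test: the log2 fold change of Cdon ranged from -1.03 to -0.70, of Gas1 from -0.06 to 0.19, of Hhip from -0.14 to 0.12, of Ptch1 from -0.53 to -0.50, of Boc from 0.83 to 0.93 and of Gli3 from -0.76 to -0.60. No paired analysis was possible because the sorted and whole limb groups share fewer than 2 replicate numbers. Depth limits Hhip most, with 88 to 205 UMIs in the sorted libraries up to E13.5. With 1 library per stage and segment, batch and group cannot be told apart.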

Other observations

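In the whole E11.5 limb, myogenic-like cluster 9 (led by Lbx1, Myf5 and Pax3, factors of muscle progenitors), which was left out of the mesenchymal levels, had Hhip at 8.99 CPM [6.26 to 12.5] in whole 1 and 7.19 CPM [4.65 to 10.6] in whole 2. The mesenchymal cells of these libraries stood at 3.35 and 2.74 CPM. Boc stood at 38.5 and 37.4 CPM in cluster 9, against 18.3 and 19.1 CPM over the mesenchymal cells.

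Ihh UMIs were found chiefly in chondrocyte-like clusters at E16.5, in 77 of 104 Ihh-positive cells proximally (cluster 7) and 28 of 40 distally (cluster 10). Within proximal chondrocyte-like cells, the 80 cells with an Ihh UMI had Boc at 33.2 CPM [25.1 to 43.0] against 60.3 CPM in the other 714 cells, and Gas1 at 119.8 CPM against 179 CPM. Ptch1 was 40.1 CPM [31.2 to 50.8] in the Ihh-positive and 31.8 CPM [28.9 to 34.8] in the other cells, with overlapping intervals. Distally, the 28 Ihh-positive cells had Boc at 83.1 CPM [61.9 to 109] against 116 CPM [108 to 124] and Ptch1 at 108 against 117 CPM, with overlapping intervals for both. Gas1 stood there at 61.9 against 198 CPM and Hhip at 3.26 against 16.7 CPM. At E14.5, 15 of 54 Ihh-positive cells were chondrocyte-like, with Gas1 at 250.3 against 932 CPM and Boc at 80.1 CPM [45.8 to 130.1] against 55.4 CPM. Of these 15 cells, 14 lay in chondrocyte-like cluster 15, which as a whole had Gas1 at 331 CPM and Boc at 75.1 CPM. At that stage the presence of Ihh and the cluster therefore cannot be told apart.

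Shh UMIs at E16.5 proximal lay in basal epithelial-like cells, with 18 of 20 Shh-positive cells in the cluster led by Krt14 and Krt5. Ptch1 stood at 41.5 CPM in that cluster as a whole and at 42.1 CPM [22.4 to 71.9] in the 18 cells.

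Among cells thinned to 3000 UMIs, Gli1 was detected in a larger share of Ptch1-positive than of Ptch1-negative cells in each of the 8 libraries, with intervals that overlap in some. The shares were 4.57% and 4.15% at E11.5, 10.5% and 4.61% at E13.5, 7.90% and 3.46% at E16.5 proximal, and 13.3% and 3.91% at E16.5 distal. Gli3 was detected in 16.7% of Ptch1-positive and 17.3% of Ptch1-negative cells at E11.5, in 18.2% [14.8 to 22.1] and 13.3% [12.3 to 14.4] at E12.5, in 17.2% and 14.5% at E13.5, in 13.8% of both at E14.5, in 8.26% and 6.87% at E16.5 proximal and in 13.5% and 14.6% at E16.5 distal, with no common direction. Cells are not replicates, and no test was made.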
